A study of Homo sapiens with 3 samples.

Results

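The loci of HMGA1 and of its relative HMGA2 were examined for binding by the HMGA1 protein itself, in a window of 1.1 Mb on chromosome 6 (33700000 to 34800000) and one of 1.2 Mb on chromosome 12 (65700000 to 66900000) of the hg19 build. HMGA1 spans 34204577 to 34214008 (9.432 kb, 0.857% of its window) and HMGA2 spans 66218240 to 66360071 (141.8 kb, 11.8% of its window). All peaks with a summit in a window were taken. There were 232 of the 385953 peaks called over input DNA (the input list), 88 at HMGA1 and 144 at HMGA2, and 153 of the 263033 peaks called over histone H3 (the H3 list), 57 at HMGA1 and 96 at HMGA2.

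The cells were DAMI, an established leukaemic line that the labels assign to MPN/AML, with no treatment or genetic change given in the labels. Chromatin from sonicated nuclei gave 3 libraries with 1 sample each, namely an HMGA1 ChIP, an H3 ChIP and input DNA made with no antibody. Both lists hold the same HMGA1 reads against a different control, so a site found in both is not a replicate, and no difference given here has a replicate check. The expression of HMGA1 and HMGA2, markers of the cell type and the copy number of the loci were not analysed here.

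HMGA1 and HMGA2 are small architectural chromatin proteins that bind the minor groove of AT-rich DNA through AT-hook motifs and bend or open it for other factors. Both genes are active in the embryo, fall silent or low in most adult tissues, and are switched on again in many tumours and leukaemias. HMGA1 is a compact gene, whereas HMGA2 is a long gene with a very large intron and is a frequent site of chromosome breaks in benign tumours. In the RefSeq gene order, protein-coding neighbours of HMGA1 are GRM4, a glutamate receptor, on one side and SMIM29 and NUDT3 on the other. Those of HMGA2 are MSRB3, a methionine sulfoxide reductase, on one side and LLPH, TMBIM4 and IRAK3, a regulator of innate immune signalling, on the other. These names come from a GRCh38 table and were used for order alone.

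Neither gene had an HMGA1 peak at its annotated start, and RefSeq promoters (GRCh38.p14, 250 bases before to 50 after a start) were matched for 1 of the 2 genes, HMGA1. The pair of HMGA1 promoters is shown because HMGA1 protein prefers AT-rich DNA. Whether base content bears on where peaks were called was not tested, and the sequences of peaks were not examined. Capitals mark runs of at least 5 bases that are all A or T, read the same on either strand. The first lies at chr6:34236623-34236922 and the second, inside the gene, at chr6:34238541-34238840, both on the plus strand of GRCh38.p14; these positions were not converted to the hg19 positions of the peaks.
HMGA1 promoter 1: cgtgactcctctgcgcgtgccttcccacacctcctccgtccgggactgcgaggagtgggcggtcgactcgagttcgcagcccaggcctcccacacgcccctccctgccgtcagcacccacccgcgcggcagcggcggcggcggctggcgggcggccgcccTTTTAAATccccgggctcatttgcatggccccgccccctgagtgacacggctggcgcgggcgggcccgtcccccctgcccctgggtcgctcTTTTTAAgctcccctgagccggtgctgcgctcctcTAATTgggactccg
HMGA1 promoter 2: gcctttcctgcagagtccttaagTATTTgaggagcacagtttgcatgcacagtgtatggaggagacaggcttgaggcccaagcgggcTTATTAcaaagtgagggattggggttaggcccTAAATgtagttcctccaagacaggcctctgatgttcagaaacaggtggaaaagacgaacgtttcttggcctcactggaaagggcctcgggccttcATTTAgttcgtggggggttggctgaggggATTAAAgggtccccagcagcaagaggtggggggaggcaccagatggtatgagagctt

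Promoter 1 was 28.0% A or T, and 15.1% of the 35116 RefSeq promoters were lower, against a median of 41.3% (quartiles 32.0 and 53.0). It still held 3 A/T runs, TTTTAAAT, TTTTTAA and TAATT, the longest of 8 bases. A run of at least 8 bases was present in 36.9% of all promoters, and one of at least 5 bases in 76.5%. Promoter 2 was 47.0% A or T, above 62.4% of promoters, with 5 runs of at most 6 bases. The upstream promoter of HMGA1 was thus GC-rich for a promoter, and the internal one was nearer the middle of the range.

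The HMGA1 gene held 0 peaks in both lists, and none lay within 5 kb of it. The nearest input-list summit before the gene start was 18.6 kb away, in the peak from 34185912 to 34186098, with 14 HMGA1 reads at the summit and a fold of 3.79 (the authors' ratio of HMGA1 over the control). It had no counterpart over H3, where the nearest peak before the start was 24.7 kb away, from 34179780 to 34179982, with 18 reads and a fold of 4.35. Past the gene, the first peak ran from 34219399 to 34219694, with its summit 15.0 kb from the gene start and 5.53 kb beyond the gene end. This peak was stronger, with 33 reads, 7.3-fold over input and 6.45-fold over H3, and was the seventh highest fold of the window over input.

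The summit-free stretch around HMGA1 measured 33.6 kb over input and 39.7 kb over H3. Such a stretch is not rare. Of all distances between neighbouring summits on the autosomes 3.02% were as long over input and 4.8% over H3, and together these took up 28.4% and 38.9% of the length between the first and last summits. A gene of this size holds 0.755 input-list peaks at the mean density of its window. The exact Poisson upper limit for 0 peaks in the gene is 391 peaks per Mb, above the 132 per Mb of the autosomes, so the gene is too short for its lack of peaks to set it apart.

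HMGA2 held 9 input-list peaks, of which 6 were also called over H3. The strongest lay 4.93 kb into the gene, from 66222975 to 66223480, with 36 HMGA1 reads (exact Poisson 95% interval 25.2 to 49.8), 8.55-fold over input and 9.2-fold over H3. A second strong peak, from 66305906 to 66306147, lay 87.8 kb into the gene with 30 reads and folds of 7.16 over input and 7.72 over H3. Both exceeded the median fold of all peaks, 4.5 over input and 5.25 over H3. The other peaks of the gene had folds over input between 2.52 and 4.98, and only the highest of these exceeded the median of 4.5.

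The other HMGA2 peaks called in both lists were modest. The peak with its summit 49.8 kb into the gene had 23 reads and folds of 4.37 over input and 5.99 over H3. The peak at 104.0 kb had 18 reads and folds of 4.98 and 4.44, and that at 127.0 kb had 16 reads and folds of 4.24 and 4.26. At 37.1 kb a peak of 15 reads passed with a fold of only 2.52 over input, where the input level was 1.92 times its floor, and 3.2 over H3. The 3 peaks without a counterpart over H3 were low, with 12 reads at 20.1 kb, 11 reads at 81.0 kb and 15 reads at 81.4 kb, and folds over input of 3.44, 2.63 and 4.23.

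**Figure D1:**
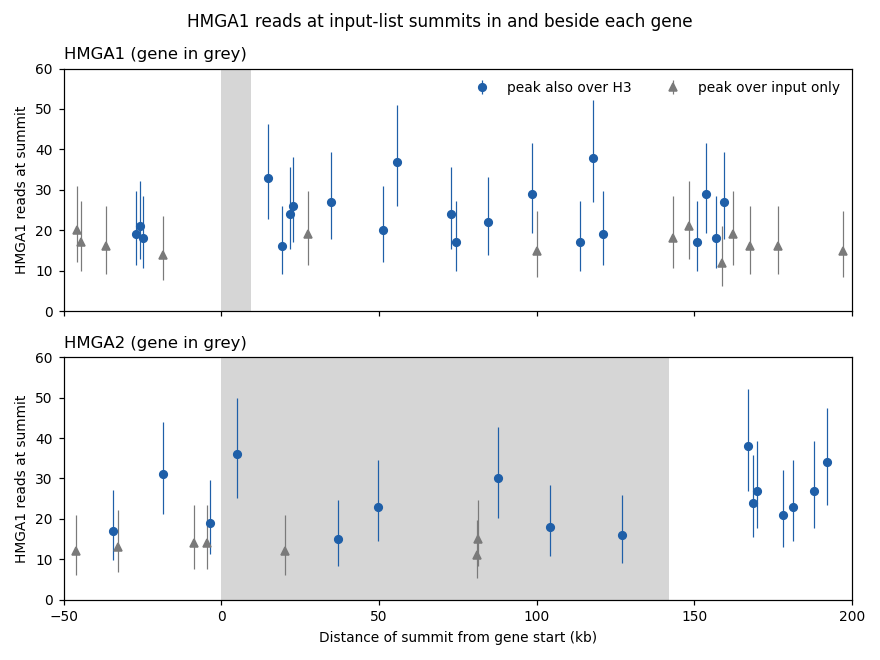
HMGA1 reads at the summit of each input-list peak (vertical axis, with exact Poisson 95% intervals for counting error) against distance from the gene start in kb, for HMGA1 (top) and HMGA2 (bottom), with the gene in grey. Circles are peaks also called over H3 and triangles are peaks called over input only; the HMGA1 gene is empty, whereas HMGA2 holds 9 peaks, led by the one of 36 reads near its start.

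The HMGA2 start itself lay between peaks. The nearest summit before it was 3.59 kb away, in the peak from 66214510 to 66214826, with 19 reads and folds of 4.39 over input and 4.19 over H3. A weaker input-list peak of 14 reads and a 3.97-fold enrichment lay 4.5 kb before the start and had no counterpart over H3. The stretch between the summits that flank the start was 8.52 kb in both lists, and 69.3% of the autosomal length over input lay in stretches at least as long. At the other end of HMGA2 the last peak was 14.6 kb before the gene end. The next summit, in the peak from 66385088 to 66385664, lay 25.2 kb beyond it, with 38 reads and folds of 8.55 over input and 7.72 over H3. The 39.8 kb between them, from 66345424 to 66385256, was the longest stretch of the HMGA2 window with no input-list summit. Over H3 the longest was 51.0 kb, from 66040472 to 66091492, on the other side of the gene.

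HMGA2 was sparser in peaks than its own surroundings. The gene held 63.5 peaks per Mb over input (95% interval 29.0 to 120.0), whereas its flanks held 125.0 per Mb before the gene and 130.0 after it. The ratio of the gene to the rest of its window was 0.497 (0.223 to 0.973) over input and 0.497 (0.178 to 1.13) over H3. At the mean density of the window 17.0 input-list peaks would fall in a stretch of this length, against the 9 found, and 11.3 H3-list peaks against 6. The interval over input excludes equal density by a small margin and the interval over H3 does not, and both cover counting error alone.

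Over the whole windows, HMGA1 peaks were sparser around HMGA1 than around HMGA2. The HMGA1 window held 80.0 peaks per Mb over input (64.2 to 98.6) and 51.8 over H3 (39.2 to 67.1). The HMGA2 window held 120.0 (101 to 141) and 80.0 (64.8 to 97.7). The ratio of HMGA2 to HMGA1 was 1.5 (1.14 to 1.98) over input and 1.54 (1.1 to 2.18) over H3. Within 250 kb of each gene the ratio came to 1.09 (0.732 to 1.63) and 1.16 (0.702 to 1.95), so close to the genes a difference was not detectable. For summits of at least 25 reads the ratio was 1.23 (0.722 to 2.13) over input and 1.27 (0.745 to 2.19) over H3, so among the higher peaks the windows did not differ beyond counting error.

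Both windows lay below their chromosomes in density, taken over the chromosome up to its last peak. The HMGA1 window had 0.456 times the density of chromosome 6 over input and 0.402 times over H3, and the HMGA2 window had 0.787 and 0.712 times that of chromosome 12. Compared with all autosomes the ratios were 0.604 and 0.57 for HMGA1, and 0.906 and 0.88 for HMGA2. Among the 1 Mb stretches of the autosomes that hold an input-list peak, the median was 118.0 peaks, and 29.2% held fewer than the HMGA1 window against 51.3% for the HMGA2 window. The HMGA2 locus was therefore of ordinary density and the HMGA1 locus lay in the lower part of the range, above the first quartile of 71.0.

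The difference between the loci lay on one side of HMGA1. Before the gene, 15 input-list peaks lay in 504.6 kb, or 29.7 per Mb (16.6 to 49.0). After it 73 peaks lay in 586.0 kb, or 125.0 per Mb (97.6 to 157.0), which is 4.19 times as dense (2.38 to 7.87). Over H3 the sides held 9 and 48 peaks, a ratio of 4.59 (2.23 to 10.6). Around HMGA2 the sides differed by less than counting error, with ratios of 1.03 (0.727 to 1.47) over input and 1.15 (0.742 to 1.78) over H3. After the genes the loci held 125.0 and 130.0 peaks per Mb over input (ratio of HMGA2 to HMGA1 1.04, 0.739 to 1.46). Before them the ratio was 4.22 (2.38 to 7.97). The sparse part did not begin at HMGA1 itself. The 100 kb bin just before the gene, from 34100001 to 34200000, held 11 input-list peaks, as many as the bin with the gene start. Over H3 these bins held 6 and 10 peaks. Each bin further before the gene held at most 3 input-list peaks.

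Most of the sparse side was a few long empty stretches. The longest ran from 33954189 to 34127333, 173.0 kb with no summit in either list, and 0.06% of distances between neighbouring autosomal summits were as long over input and 0.259% over H3. It was picked as the longest of its window. The share of autosomal length in such stretches, which is larger than their share of distances, was not computed. It ended at one of the strongest sites of the locus, the peak from 34127155 to 34127486, 77.2 kb before HMGA1, with 39 reads and a 10.4-fold enrichment over input. Whether reads could be placed in the empty stretch was not tested. In successive 100 kb bins the HMGA1 window ranged from 0 to 22 input-list peaks, with 2 empty bins and 54.5% of its peaks in the 3 fullest. The HMGA2 window ranged from 8 to 19 peaks with no empty bin and 35.4% in the 3 fullest, so peaks were spread far more evenly there. The 22 peaks of the fullest bin lay between 34600001 and 34700000, with 15 H3-list peaks.

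**Figure D2:**
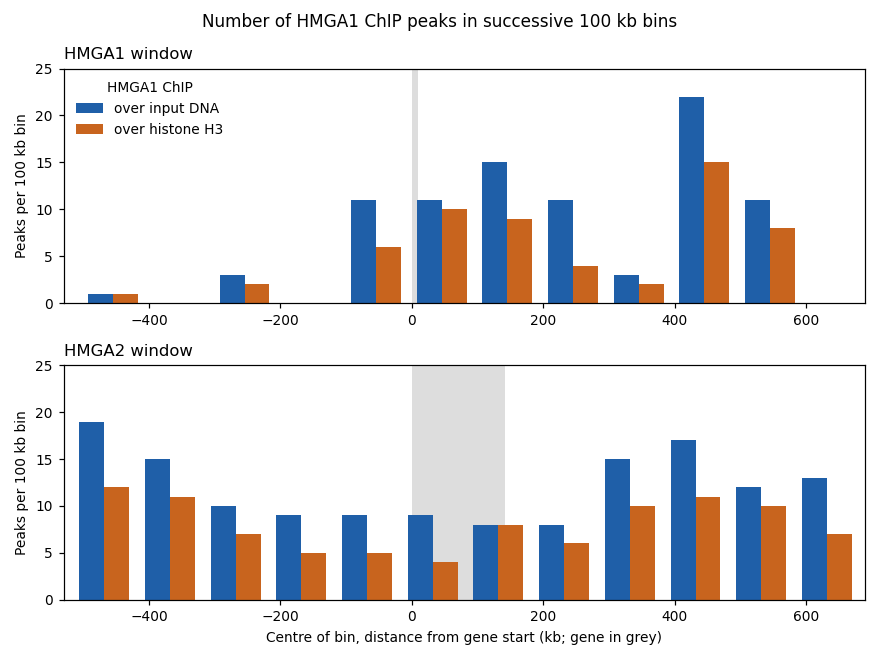
Number of HMGA1 ChIP peaks (vertical axis) in successive 100 kb bins placed by their distance from the gene start in kb, over input DNA (blue) and over histone H3 (orange), with each gene in grey. The HMGA1 window has 2 empty bins before the gene and up to 22 input-list peaks after it, whereas the HMGA2 window has between 8 and 19 in every bin.

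Neighbouring summits were typically further apart at both loci than over the autosomes, where dense stretches supply more of the distances than sparse ones. The median distance between neighbouring input-list summits was 4780 bp in the HMGA1 window and 5290 bp in the HMGA2 window, against 3220 bp over the autosomes. Distances of up to 2 kb made up 26.4% at HMGA1 (18.3 to 36.6) and 25.9% at HMGA2 (19.4 to 33.6), against 35.4%, a value inside the HMGA1 interval and outside that of HMGA2. Over H3 the median distances were 7620 and 10400 bp against 4140 bp.

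Peaks of both loci were of ordinary strength for their lists. The median fold over input was 4.38 at HMGA1 (95% interval 3.92 to 5.05) and 4.75 at HMGA2 (4.39 to 5.02), against 4.5 for the whole list. Over H3 it was 5.12 (4.52 to 5.56) and 5.17 (4.76 to 5.74), against 5.25. The median summit held 20.0 HMGA1 reads at HMGA1 (18.0 to 22.0) and 19 at HMGA2 (18 to 21) over input. The intervals of the 2 loci overlapped for each of these medians. A fold of at least 6 was reached by 21 of 88 input-list peaks at HMGA1 (23.9%, 16.2 to 33.7) and 35 of 144 at HMGA2 (24.3%, 18.0 to 31.9), against 23.1% of the whole list. Over H3 it was reached by 14 of 57 (24.6%, 15.2 to 37.1) and 31 of 96 (32.3%, 23.8 to 42.2), against 31.3%.

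Wide peaks were scarce around HMGA1. Of the HMGA1-window peaks over input 5 were at least 500 bp wide (5.68%, 2.45 to 12.6), against 19 at HMGA2 (13.2%, 8.61 to 19.7) and 16.9% of the whole list. Over H3 the shares were 3.51% (0.968 to 11.9), 11.5% (6.52 to 19.4) and 14.0%. The intervals at HMGA1 lie below the whole-list share and those at HMGA2 include it. The widest peak at HMGA1 ran from 34357778 to 34358445 (668 bp, 29 reads, 6.58-fold over input). At HMGA2 it ran from 66462525 to 66463936 (1412 bp, 30 reads, 8.2-fold), 103.0 kb beyond the gene end.

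The strongest sites lay outside both genes, of which HMGA1 held no peak and HMGA2 held 9 of the 144 input-list peaks of its window. At HMGA1 the highest fold in either list was at the peak from 34748262 to 34748594, 544.0 kb from the gene start, with 50 reads (37.1 to 65.9), 11.2-fold over input and 8.86-fold over H3. The peak before the gene at 10.4-fold came next over input. It was followed by peaks from 34322438 (38 reads, 8.68-fold), 34658118 (34 reads, 8.09-fold) and 34582073 (36 reads, 8.08-fold). Over H3 the peaks starting at 34658129 and 34322469 followed, at 8.7-fold and 8.67-fold. The nearest of these sites to HMGA1 was the one 77.2 kb before it.

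At HMGA2 the highest fold over input was 13.2, in the peak from 66808593 to 66808913, 591.0 kb from the gene start, with 49 reads (36.3 to 64.8) and the input at its floor. Over H3 the same site reached 9.89-fold, and the highest fold there was 11.9, in the peak from 66602815 to 66603135, with 53 reads and 9.91-fold over input. A pair of neighbouring peaks stood out on the other side, 333.0 and 332.0 kb before HMGA2. The first, from 65884287 to 65885299, was 1013 bp wide with 45 reads, 10.1-fold over input and 11.4-fold over H3. The second, from 65886028 to 65886408, had 43 reads, 10.6-fold over input and 10.9-fold over H3. The peak from 66844088 to 66844678 completed the 5 highest over input, with 38 reads and a 10.2-fold enrichment. By q-value the leading HMGA2-locus peak ranked 2738 of the 385953 input-list peaks and the leading HMGA1-locus peak 4165. In the H3 list of 263033 peaks the leading ranks were 3190 at HMGA2 and 8883 at HMGA1. The best rank of a window depends on how many peaks it holds. These ranks were not compared with those of other windows.

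**Figure D3:**
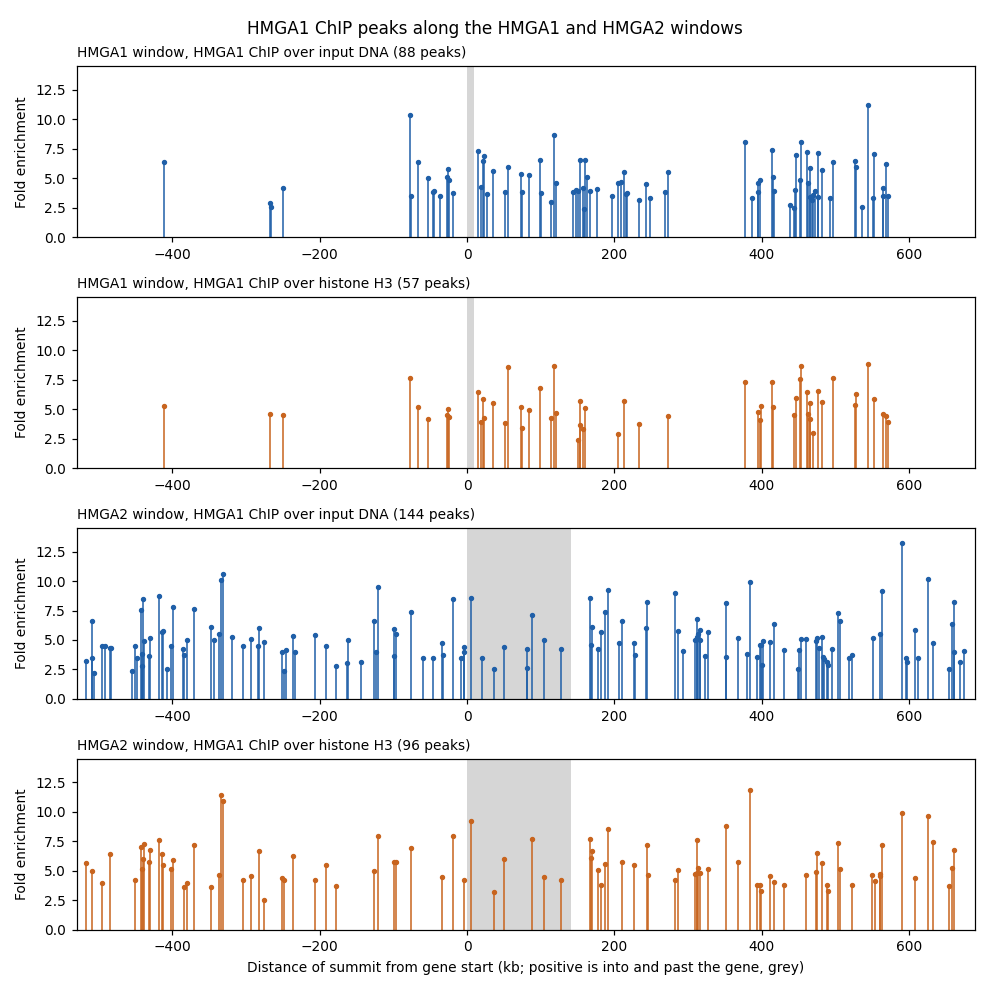
Fold enrichment of HMGA1 ChIP over its control (vertical axis) at every peak against the distance of its summit from the gene start in kb, for the HMGA1 window (upper 2 panels) and the HMGA2 window (lower 2 panels), over input DNA (blue) and histone H3 (orange), with each gene in grey. No line falls in HMGA1, few fall before it, and the highest folds of both windows, 11.2 and 13.2 over input, lie over 500 kb past the gene start.

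The controls were higher at peaks of the HMGA1 locus than at those of HMGA2. MACS2 uses a genome-wide minimum, the floor, where the local control is lower, and this floor was 2.78 reads for input and 2.19 for H3. The median input level was 1.28 times the floor at HMGA1-window peaks (1.2 to 1.3) and 1.09 times at HMGA2-window peaks (1.06 to 1.18), against 1.14 for the whole list. Only 5 of 88 peaks at HMGA1 were at the floor (5.68%, 2.45 to 12.6), compared with 38 of 144 at HMGA2 (26.4%, 19.9 to 34.1) and 36.4% of the whole list. On their own chromosomes 19.0% of input-list peaks were at the floor on chromosome 6 (median level 1.2) and 16.9% on chromosome 12 (median 1.22), so the share at the floor was lower at HMGA1 than on its chromosome and higher at HMGA2 than on its own. The H3 level showed the same order, at 1.28 (1.16 to 1.37) and 1.11 (1.07 to 1.2) times its floor, with 5.26% and 22.9% of peaks at the floor against 36.6% on chromosome 6, 32.0% on chromosome 12 and 42.9% of the whole list. For peaks of 16 to 24 reads the median fold over input was 4.1 at HMGA1 (3.85 to 4.61) and 4.9 at HMGA2 (4.51 to 5.05), against 4.62 for the whole list. Over H3 it was 4.52 (4.19 to 4.75) and 4.63 (4.38 to 4.97), against 4.75. Over input the HMGA1 interval lay just below the whole-list median, and the intervals of the 2 loci overlapped only between 4.51 and 4.61. Over H3 the HMGA1 interval reached the whole-list median and overlapped most of the HMGA2 interval. Among peaks of 16 to 24 reads the fold at HMGA1 was thus lower than in the whole list over input, by a small margin, and not detectably so over H3. Within a list the fold at a given number of reads follows from the control level. The lower fold is therefore not a separate result from the higher control. A higher control also raises the number of reads needed for a call; the part of this in the lower peak density around HMGA1 was not tested.

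**Figure D4:**
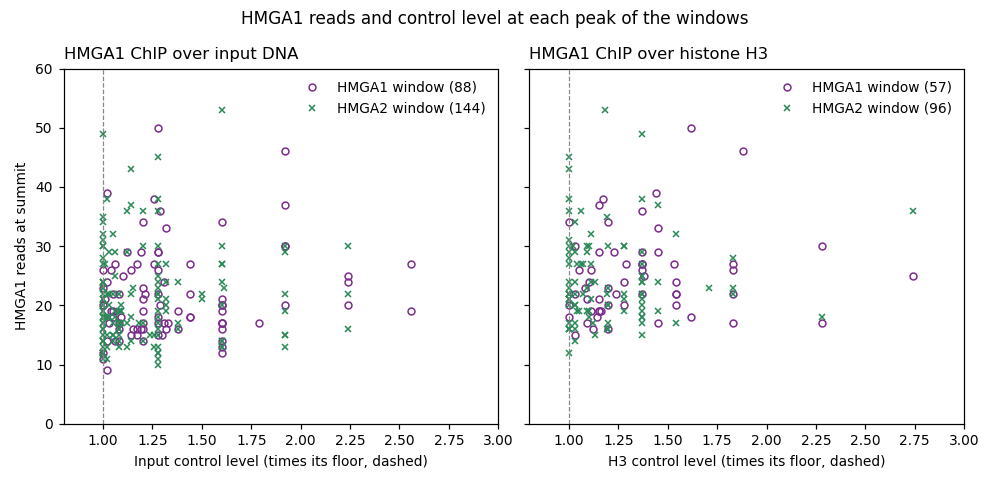
HMGA1 reads at the summit (vertical axis) against the recovered control level as a multiple of its genome-wide floor (dashed line at 1), for each peak of the HMGA1 window (purple circles) and the HMGA2 window (green crosses), over input DNA (left) and histone H3 (right). At HMGA1 5 of 88 input-list peaks sit at the floor, whereas at HMGA2 38 of 144 do.

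At each locus the overlap of the 2 lists was close to that of the whole lists, and near complete only for H3-list peaks. Of the input-list peaks 55 of 88 at HMGA1 (62.5%, 52.1 to 71.9) and 93 of 144 at HMGA2 (64.6%, 56.5 to 71.9) overlapped an H3-list peak by at least 1 bp, against 65.8% of the whole list. Of the H3-list peaks 56 of 57 (98.2%) and 95 of 96 (99.0%) overlapped an input-list peak, against 98.3%. Peaks found over input alone were low, with a median of 16 reads at HMGA1 and 14 at HMGA2, against 14 over the whole list. Input-list peaks also called over H3 had 24 and 23, against 23. The single H3-list peak without a counterpart ran from 34603917 to 34604216 at HMGA1 (20 reads, 5.25-fold over H3), and from 66772562 to 66772748 at HMGA2 (17 reads, 4.17-fold).

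Where a peak had exactly the same summit base over both controls, at 24 sites of the HMGA1 locus and 38 of the HMGA2 locus, the HMGA1 reads were equal at every site, so there the folds differ through the control and the scaling of the HMGA1 reads in the H3 list. The H3 level exceeded its floor at 91.7% of them at HMGA1 and 92.1% at HMGA2, against 55.1% of the 114050 such sites in the genome. The input level exceeded its floor at 95.8% and 78.9%, against 70.0%. H3 above its floor was thus more frequent at these sites of both loci than over the genome. A ratio of 1.5 or more between the 2 relative levels was uncommon in either direction. H3 exceeded input by this much at 1 site of HMGA1 (4.17%) and 3 of HMGA2 (7.89%), against 4.12% of such sites in the genome. Input exceeded H3 at 4 (16.7%) and 6 (15.8%), against 11.8%. With so few sites these shares were not told apart from those of the genome.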

How the data were processed

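The authors called peaks with MACS2 on hg19, per the submitters' processing notes. For the aligner, the read filters and the version of MACS2, the sources used here give nothing. Each row of a deposited list gives the authors' fold enrichment ratio over the control at the summit, p-value and q-value as −log10, and a score that follows the q-value. The names of single peaks do not spell HMGA1; the ChIP library is identified by the names of the lists and the labels. A peak was placed by its summit, the start plus the summit offset. HMGA1 reads at each summit and the control level were worked back, from fold and p-value of the deposited row, to the whole pileup that gave back the −log10 p within 0.001; this worked for 385953 of 385953 input-list peaks and, with the HMGA1 reads multiplied by 0.7867, for 263031 of 263033 H3-list peaks. The recovery was tested on simulated data. They are not read counts from the files, and total read numbers are unknown. Shares carry Wilson 95% intervals, densities exact Poisson intervals, density ratios exact binomial intervals, and medians order-statistic intervals; all treat peaks as independent and cover counting error only. No test was run, since there is 1 library per antibody. Peaks named in the text were those in or within 5 kb of HMGA1 (none), those nearest each gene start, the highest folds in HMGA2 and in each window (5 over input, 3 over H3), the longest summit-free stretches, and, chosen after their values were seen, the peaks after each gene end, the other HMGA2 peaks and the widest peaks. The genes and windows were chosen with earlier results of these data known. Software was pandas 2.3.3, scipy 1.17.1, numpy 2.4.6 and matplotlib 3.10.9 under Python 3.11.15.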

Additional observations from a re-analysis of the deposited data

How the results depend on the processing

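No paired analysis was possible because each library has 1 sample, and for the same reason no replicate could be left out. In all, 90 of 136 values under other settings stayed close to the reported ones and 46 moved, chiefly because a stricter list keeps fewer and higher peaks. In the settings tried, the HMGA2 window had more peaks per Mb than the HMGA1 window. HMGA1 held no peak with 5 kb added on both sides or when any overlap with the gene was counted. The stricter lists could only remove peaks, so they had no bearing on the lack of peaks in HMGA1. The ratio of the windows was no longer beyond counting error with at least 25 reads or within 250 kb of the genes, nor with the 100000 highest-q peaks (1.3, 0.748 to 2.29 over input and 1.64, 0.909 to 3.04 over H3), nor over H3 with a −log10 q of at least 5 (1.45, 0.992 to 2.15). Peaks per Mb over input fell to 45.5 at HMGA1 with a fold of at least 4. With at least 25 reads they were 23.6 at HMGA1 and 29.2 at HMGA2 over input and 23.6 and 30.0 over H3, and with the 100000 highest-q peaks 21.8 and 28.3 over input and 17.3 and 28.3 over H3. The median fold over input was 5.11 (HMGA1) and 5.23 (HMGA2) with a −log10 q of at least 5, 6.58 and 7.77 with at least 25 reads, and 6.76 and 7.94 with the 100000 highest-q peaks. With a fold of at least 4 it was 5.75 and 5.29, the reverse of the reported order. Over H3 it was 6.35 and 7.22 with at least 25 reads and 6.76 and 7.24 with the 100000 highest-q peaks. Median reads over input were 24 (HMGA1) and 22.0 (HMGA2) with a fold of at least 4, 22.0 (HMGA2) with a −log10 q of at least 5, and 29.0 and 30.0 both with at least 25 reads and with the 100000 highest-q peaks. Over H3 they were 29.0 and 30.0 with at least 25 reads and 30.0 at both loci with the 100000 highest-q peaks. The share of input-list peaks shared with the H3 list was 80.0% (HMGA1) and 72.0% (HMGA2) with a fold of at least 4, 100% at both with at least 25 reads, and 79.4% (HMGA2) with the 100000 highest-q peaks. The share of H3-list peaks shared was 85.1% and 92.5% with a fold of at least 4, 100% at both with at least 25 reads or within 250 kb of the gene, 89.5% and 79.4% with the 100000 highest-q peaks, and 91.7% (HMGA2) with 50% of both peaks shared. The lowest summit called anywhere had 8 HMGA1 reads over input and 11 over H3, so weaker binding was not detectable at this depth.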
